A study of Mus musculus with 12 samples.

Results

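The 2 switches of the light:dark cycle were set against each other in the nascent RNA of mouse liver: lights on, at zeitgeber time 0 (ZT0, where ZT counts the hours from lights on), against lights off, at ZT12. Nascent RNA is RNA that was still attached to chromatin while being made, so a difference speaks of RNA in the making more than of stored mRNA. The livers came from wild-type male C57BL/6 mice, adults of 3 to 6 months. All had been kept for at least 2 weeks in 12 hr of light and 12 hr of dark, and no genotype or drug separated the groups. ZT0 and ZT12 were each represented by 2 libraries (replicate 1 and replicate 2), which makes 4 of the 12 libraries of the series, and each of the 4 was sequenced in 1 lane. The number of animals behind a library and the side of the light switch on which livers were taken were not given in the sources used here, and p-values measure only the spread between libraries. Genes were kept when their signal over exons was above 6 reads per base pair (rpbp) in at least 1 of the 4 libraries, which 5451 of the 21490 gene symbols were. Of these, 4113 passed 6 rpbp at both time points, 616 at ZT0 alone and 722 at ZT12 alone. The highest of the 4 values lay between 6 and 6.5 rpbp for 407 symbols just inside this limit and between 5.5 and 6 rpbp for 460 symbols just outside it. Cry1, a clock repressor, was just outside, with 2.8 and 3.6 rpbp at ZT0 and 5.5 and 5.8 rpbp at ZT12, and Cdk6 just inside, with 5.9 and 6.6 rpbp at ZT0 and 6.1 and 4.7 rpbp at ZT12.

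In liver cells, as in most cells, a transcriptional loop keeps daily time. BMAL1 (encoded by Arntl) pairs with CLOCK or NPAS2 and binds E-box sequences in DNA, which activates the Per and Cry genes, and their proteins in turn repress BMAL1 and its partners. Nuclear receptors act on Arntl itself, and the PAR bZIP factors DBP, TEF and HLF carry the rhythm to further genes through D-box sequences. Mice feed mostly in the dark, so at lights off the liver ends its daily fast and at lights on its main meal, and many genes of sugar, lipid and bile acid handling follow both the clock and the meals.

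With the main test, 244 of the 5451 symbols (4.48%) differed between ZT0 and ZT12 at an adjusted p under 0.05 (limma on log2(rpbp + 1), Benjamini-Hochberg). More of them were high at lights off: 156 symbols (2.86%) were higher at ZT12 and 88 (1.61%) were higher at ZT0. Of the 88, 58 passed 6 rpbp at ZT0 alone, and of the 156, 67 passed it at ZT12 alone. These entered the test only through the time point where they were high. At an unadjusted p under 0.05 (limma), 1069 symbols (19.6%) differed, 651 (11.9%) towards ZT12 and 418 (7.67%) towards ZT0. The median fold between the time points, on the scale of rpbp + 1, was 2.87 for those higher at ZT12 (1.77 to 23.6) and 2.96 for those higher at ZT0 (1.77 to 31.4). In total, 145 of the 156 and 79 of the 88 changed by over 2-fold, and 42 and 23 by over 4-fold. Since some symbols overlap, the 244 symbols stood for 213 loci, 135 higher at ZT12 and 78 higher at ZT0. By a plain rule with no test, that both libraries of one time point exceed both of the other by over 1.5-fold, 547 symbols stood apart, 332 (6.09%) higher at ZT12 and 215 (3.94%) higher at ZT0. All 244 called symbols were among the 547, so such a gap is no further support for a single call. Both replicate pairs failed to overlap by any margin for 2718 symbols (49.9%). An exact permutation test of 2 libraries against 2 cannot give a p under 0.333, so the calls rest on a spread shared across genes and with the one-lane libraries of ZT4 and ZT16.

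**Figure D1:**
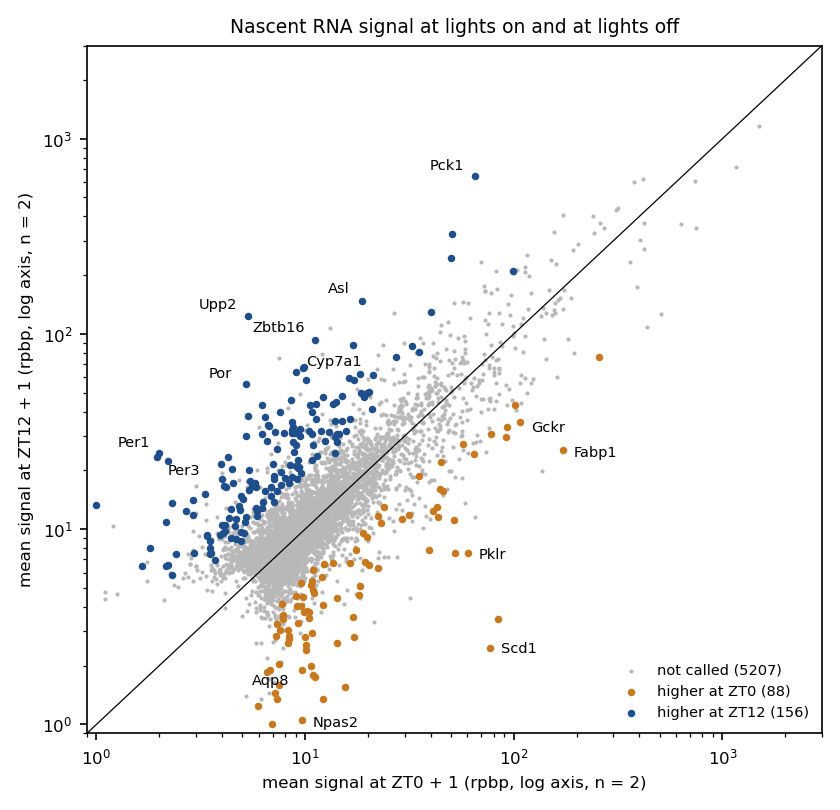
Mean nascent RNA signal of each tested gene at ZT0 (horizontal) and ZT12 (vertical), both in rpbp with 1 added, on log axes, with 2 libraries per mean; grey points are genes not called, orange points the 88 called higher at ZT0, blue points the 156 called higher at ZT12, and the line marks equal signal. Scd1 lies farthest below the line and Upp2 farthest above it.

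The number of calls rested on all 4 libraries. Leaving out any 1 of the 4 leaves 1 library at that time point and gave fewer calls, fewest without ZT0 replicate 1. Without ZT12 replicate 1, or without ZT12 replicate 2, some calls were not among the 244. All 244 differences kept their direction in each of these fits. This was fixed in advance, since every called symbol had both libraries of one time point above both of the other. In all 4 of them 7 symbols were called: AK142254, AK005275, Aqp8 and Pdk4 higher at ZT0, and DQ693081, Ccrn4l and Map2k6 higher at ZT12. The split between the directions moved with the scaling. After each library was rescaled to a common median, 135 symbols were higher at ZT12 and 103 at ZT0, so that the share of calls higher at ZT12 went from 63.9% to 56.7%, and after the trend with exon GC content was removed it was 55.7% (132 and 105 symbols). Of the 244 symbols, 201 were still called with equal medians and 191 without the GC trend. With the replicate number as a block 141 symbols were called, 135 of them among the 244. The differences followed GC content: from the lowest to the highest of 20 bins of exon GC content, the median log2 difference (ZT12 minus ZT0) went from −0.20 to 0.19. The median exon GC content was 51.2% for genes called higher at ZT12, 47.8% for those called higher at ZT0 and 50.2% for all tested genes with a known value (4874).

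**Figure D2:**
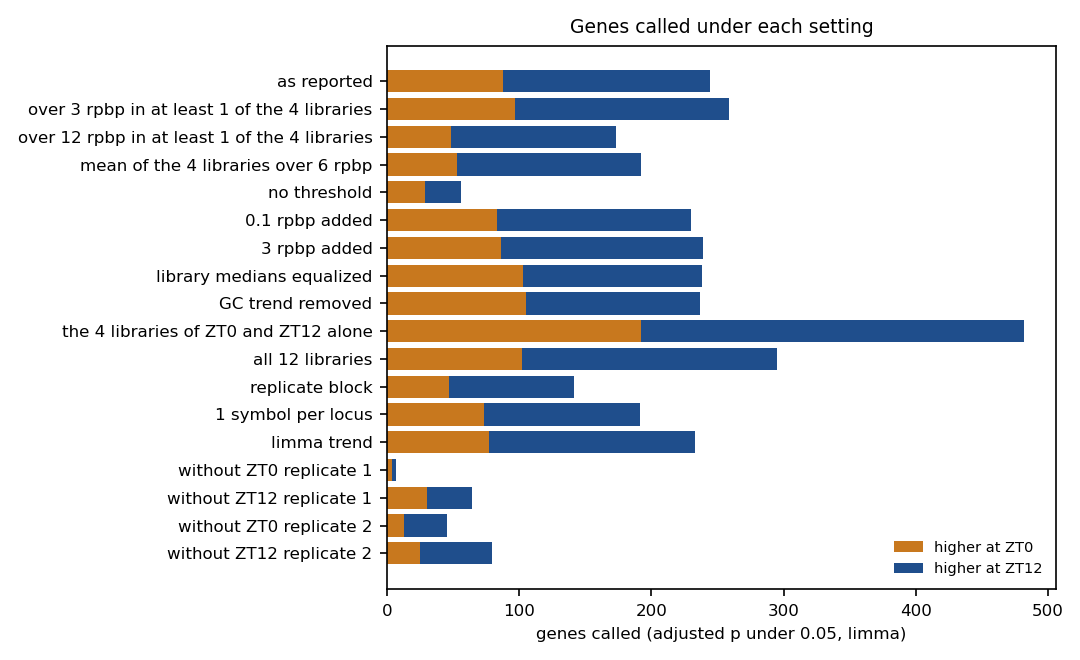
Number of genes called (adjusted p under 0.05, limma) under the reported setting and each of the 17 alternatives, with orange for genes higher at ZT0 and blue for genes higher at ZT12. The counts run from 7 without ZT0 replicate 1 to 482 when the spread is taken from the 4 libraries alone, against 244 as reported.

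The 4 libraries were close in summed signal, and all carried the markers of liver. The rpbp values summed to 118342 and 137521 at ZT0 and to 128331 and 140966 at ZT12, and the median over the tested genes was 7.8 to 9 rpbp. Values within a time point differed by over 1.5-fold for 13.5% of the genes at ZT0 and 14.5% at ZT12, against 28.5% and 24.2% between time points for replicates 1 and 2. Hepatocyte markers dominated, with 10 of 11 over 6 rpbp and summed values of 1063.3 and 1800.1 rpbp at ZT0 and 1758.6 and 2024.4 rpbp at ZT12, so that ZT0 replicate 1 was the lowest. Markers of Kupffer cells, the resident macrophages, summed to 41.5 and 45.3 rpbp at ZT0 and 66.4 and 61.1 rpbp at ZT12, with 3 of 12 tested, none called and 1 (Lyz) at 0 in all 4 libraries. Sinusoidal endothelial markers summed to 64.1 and 56.6 rpbp at ZT0 and 59.6 and 48.2 rpbp at ZT12. Stellate cell, cholangiocyte, lymphocyte and erythroid markers summed to at most 18 rpbp in any library, and adipocyte and acinar markers to at most 0.2 rpbp. The part of cell make-up in the results was not tested, and in whole liver fewer cells of a type cannot be told apart from less RNA per cell.

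At lights on, the strongest difference was that of Scd1 (chromosome 19, 44468945 to 44482043 in mm9, minus strand, protein coding), the desaturase that makes monounsaturated fatty acids. Its signal was 66.6 and 86.1 rpbp at ZT0 and 1.3 and 1.6 rpbp at ZT12, a log2 difference of −4.97 ± 1.09 (SE; limma, adjusted p = 0.0443). Both libraries at ZT0 were far above both at ZT12, but the estimate carries a wide error, since the ZT16 libraries that share the fit stood at 48.7 and 1.5 rpbp. With equal medians the adjusted p of Scd1 was 0.0571 (limma), and it was 0.0630 without the GC trend. The symbol BC114417 overlaps Scd1 and gave nearly the same values (73.1 and 92.7 against 2.2 and 2.7 rpbp), so it is no second locus. A long non-coding RNA, AK142254 (chromosome 19, 36693908 to 36763969, minus strand, lincRNA in GENCODE M1), was at 11.4 and 17.7 rpbp at ZT0 and 0.6 and 0.5 rpbp at ZT12, a log2 difference of −3.30 ± 0.25 (SE; limma, adjusted p = 0.00234). It overlaps AK005275 and Hectd2, both also called higher at ZT0, and unstranded values do not separate the 3.

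Several of the next genes handle fuels and lipids. Fabp1, the main fatty acid carrier of the hepatocyte, was the most abundant of these 15 genes, at 162.4 and 181.4 rpbp at ZT0 and 19.7 and 28.9 rpbp at ZT12, a log2 difference of −2.79 ± 0.30 (SE; limma, adjusted p = 0.00657). Pklr, the liver pyruvate kinase at the end of glycolysis, was at 74.8 and 44.5 rpbp at ZT0 and 5.4 and 7.7 rpbp at ZT12, a log2 difference of −2.98 ± 0.49 (SE; limma, adjusted p = 0.0200). Aacs, which activates acetoacetate for lipid synthesis, was at 65.6 and 37.3 rpbp at ZT0 and 3.9 and 9.2 rpbp at ZT12, a log2 difference of −2.84 ± 0.49 (SE; limma, adjusted p = 0.0233). All 3, like every symbol called higher at ZT0, had both ZT0 libraries above both ZT12 libraries. Mod1 (now Me1), the malic enzyme that supplies NADPH for fatty acid synthesis, was at 10.6 and 9.2 rpbp at ZT0 and 0.2 and 1.4 rpbp at ZT12, a log2 difference of −2.68 ± 0.51 (SE; limma, adjusted p = 0.0303). The water and peroxide channel gene Aqp8 was at 8.4 and 11.8 rpbp at ZT0 and 0.9 and 0.6 rpbp at ZT12, a log2 difference of −2.65 ± 0.24 (SE; limma, adjusted p = 0.00284). Serpina7, which encodes thyroxine-binding globulin, was at 7.1 and 4.8 rpbp at ZT0 and listed at 0 in both libraries at ZT12 (limma, adjusted p = 0.00489), and no fold is given. Rwdd2a was at 10.1 and 12.2 rpbp at ZT0 and 0 and 0.7 rpbp at ZT12 (limma, adjusted p = 0.0120). On the same chromosome 9, Mod1 had much the same values, also at ZT8, with 8.2 and 55.3 rpbp against 7.9 and 66.1 rpbp for Rwdd2a. The values are unstranded, and whether their signals are separate was not tested. The others of the 15 were Npas2, described with the clock genes, and Hcn3, Ddah1, Stx1b2 and Ces5, with log2 differences from −2.51 to −2.43. Ddah1 breaks down methylated arginines, Hcn3 encodes a channel subunit and Ces5 a carboxylesterase.

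At lights off the strongest difference was that of Upp2, a uridine phosphorylase (chromosome 2, 58419794 to 58645381, plus strand, protein coding). Its signal was 3.3 and 5.4 rpbp at ZT0 and 132.6 and 113.5 rpbp at ZT12, a log2 difference of 4.56 ± 0.61 (SE; limma, adjusted p = 0.00943). Pck1 (chromosome 2, 172978574 to 172984754, plus strand), which encodes the PEPCK enzyme that commits carbon to new glucose, had the highest level per base of any called gene, at 49.3 and 79.6 rpbp at ZT0 and 630.4 and 654.7 rpbp at ZT12, a log2 difference of 3.34 ± 0.39 (SE; limma, adjusted p = 0.00724). The replicates at ZT12 differed by far less than the distance between the time points. Cyp7a1, the rate-limiting enzyme of bile acid synthesis (chromosome 4, 6192759 to 6202778, minus strand), was at 5.4 and 10.7 rpbp at ZT0 and 76.4 and 49 rpbp at ZT12, a log2 difference of 2.85 ± 0.38 (SE; limma, adjusted p = 0.00943). The urea cycle gene Asl, argininosuccinate lyase, was at 15.2 and 20.1 rpbp at ZT0 and 177.6 and 113.8 rpbp at ZT12, a log2 difference of 2.95 ± 0.26 (SE; limma, adjusted p = 0.00284). AK212710, a short interval inside that of Asl, was at 37.7 and 61.8 against 399.2 and 249.1 rpbp, and is the same locus.

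Fkbp5, a co-chaperone of steroid receptors, was at 1.6 and 0.8 rpbp at ZT0 and 10.7 and 32.2 rpbp at ZT12, with replicates at ZT12 that were themselves far apart (a log2 difference of 3.19 ± 0.62, SE; limma, adjusted p = 0.0312). Zbtb16, a zinc finger repressor, was at 8.2 and 12.2 rpbp at ZT0 and 105.1 and 79.2 rpbp at ZT12, a log2 difference of 3.07 ± 0.61 (SE; limma, adjusted p = 0.0327). Il6ra, the interleukin 6 receptor, was at 3.3 and 7.1 rpbp at ZT0 and 40.5 and 44.1 rpbp at ZT12, a log2 difference of 2.87 ± 0.34 (SE; limma, adjusted p = 0.00724). Like every symbol called higher at ZT12, these 3 had both ZT12 libraries above both ZT0 libraries. The GDNF receptor gene Gfra1 was at 8.5 and 9.2 rpbp at ZT0 and 78 and 54.8 rpbp at ZT12, a log2 difference of 2.75 ± 0.56 (SE; limma, adjusted p = 0.0352), and the symbol GDNFR-alpha gave the same locus again. DQ693081, an interval on chromosome 19 (37331866 to 37331895) shorter than a sequencing read, was listed at 0 in both libraries at ZT0 and at 16.4 and 8.2 rpbp at ZT12 (limma, adjusted p = 0.00234). Both ZT16 libraries were also at 0, so part of the spread behind this p-value comes from values at the floor. The remaining members of the 15, Per3, Per1, Por and Ccrn4l, belong to the clock or its output. With equal medians, 11 of these 15 genes and 12 of the 15 with the largest differences towards ZT0 were still called.

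**Figure D3:**
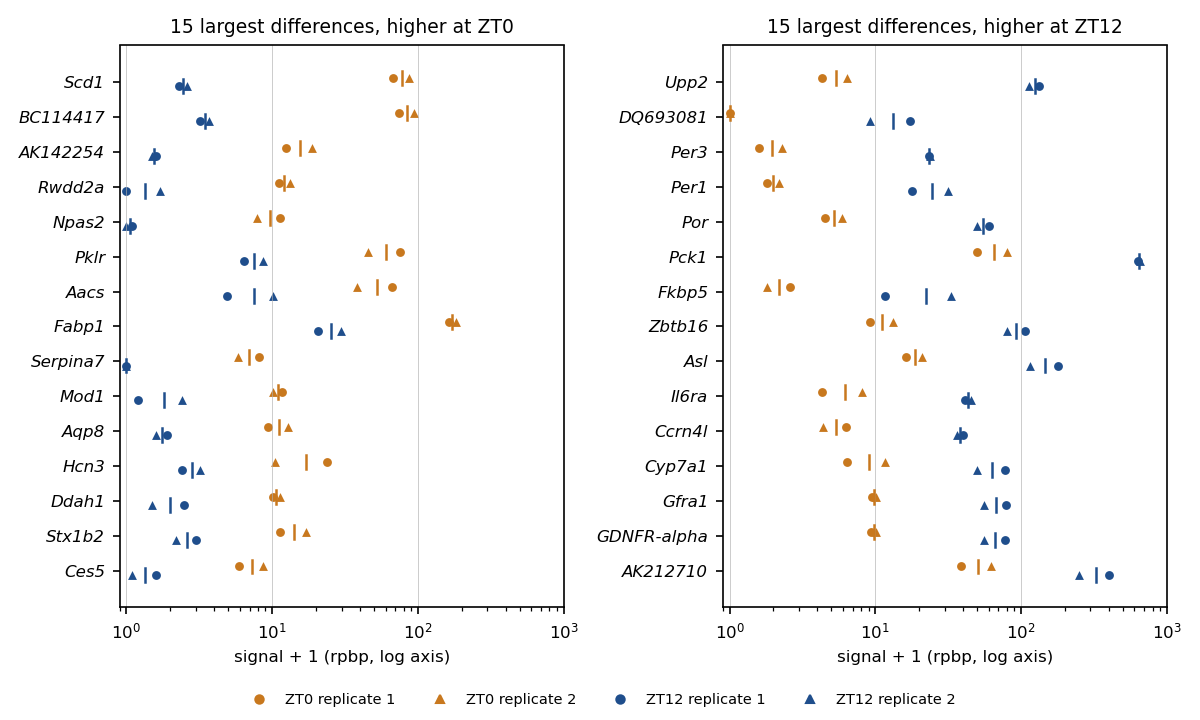
Signal in each of the 4 libraries (rpbp with 1 added, log axis) of the 15 called genes with the largest log2 difference in each direction, with orange for ZT0, blue for ZT12, circles for replicate 1, triangles for replicate 2 and short lines for the means. For all 30 genes, as for every called gene, both libraries of one time point lie apart from both of the other, with DQ693081 at 0 rpbp at ZT0 and Serpina7 at 0 rpbp at ZT12.

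Of 5 tested activators of the clock, 2 were called higher at ZT0 and 1, not reported here, higher at ZT12 (limma). Among those reported, Arntl and Npas2 were higher at ZT0, and Clock and Rora were not called. Npas2, the partner that can stand in for CLOCK, was at 10.4 and 6.9 rpbp at ZT0 and 0.1 and 0 rpbp at ZT12 (limma, adjusted p = 0.00724). Arntl itself was at 8 and 10.1 rpbp at ZT0 and 1.8 and 1.3 rpbp at ZT12, a log2 difference of −1.98 ± 0.39 (SE; limma, adjusted p = 0.0327), and the symbol bmal1b, a transcript of the same locus, followed it. Clock was at 9.8 and 13.3 rpbp at ZT0 and 6.7 and 8 rpbp at ZT12, a smaller difference whose groups did not overlap (a log2 difference of −0.58 ± 0.21, SE; limma, adjusted p = 0.185). Rora, a receptor that activates Arntl, was at 9.1 and 9.1 against 7.9 and 9 rpbp. Leaving out ZT0 replicate 1 left neither the call of Arntl nor that of Npas2, and leaving out any other of the 4 libraries left that of Npas2.

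On the repressor side, 7 of the 12 tested repressors and direct E-box targets were higher at ZT12 and none was called higher at ZT0 (limma), where 1, Nfil3, had an unadjusted p under 0.05, with a median log2 difference of 1.57 against 0.05 over all tested genes. Per1 (chromosome 11, 68908756 to 68923459, plus strand) was at 0.8 and 1.2 rpbp at ZT0 and 16.8 and 30.4 rpbp at ZT12, a log2 difference of 3.57 ± 0.31 (SE; limma, adjusted p = 0.00284). Per3 (chromosome 4, 150377764 to 150418731, minus strand) was at 0.6 and 1.3 rpbp at ZT0 and 22.4 and 22.6 rpbp at ZT12, a log2 difference of 3.61 ± 0.55 (SE; limma, adjusted p = 0.0153). Per2 was higher at ZT12 as well, with 6.6 and 9.3 rpbp at ZT0 and 25.4 and 35 rpbp at ZT12, a log2 difference of 1.80 ± 0.36 (SE; limma, adjusted p = 0.0327). Each of the 3 Per genes, like every symbol called higher at ZT12, had both ZT12 libraries above both ZT0 libraries. Cry2 was at 6.7 and 9.4 rpbp at ZT0 and 21.2 and 18.7 rpbp at ZT12, a log2 difference of 1.22 ± 0.22 (SE; limma, adjusted p = 0.0269). The PAR bZIP factors Dbp and Tef were at 2.3 and 3.6 against 18.5 and 22.7 rpbp and 5.7 and 9.4 against 42.7 and 46.7 rpbp, with log2 differences of 2.46 ± 0.49 and 2.45 ± 0.34 (SE; limma, adjusted p = 0.0327 and 0.00943). Gm129 (now Ciart), a repressor of BMAL1 complexes, was at 1.3 and 1.3 rpbp at ZT0 and 8.5 and 16.6 rpbp at ZT12, a log2 difference of 2.49 ± 0.34 (SE; limma, adjusted p = 0.00943).

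The rest of that list did not pass the test. Nr1d1 and Nr1d2 encode the REV-ERB receptors that repress Arntl. Nr1d2 stood apart at 2.2 and 3.4 against 7.6 and 9.5 rpbp (limma, adjusted p = 0.0937), whereas the values of Nr1d1 overlapped (6.3 and 11.9 against 9.4 and 15.1 rpbp). Hlf was at 3.6 and 6.9 against 8.1 and 13.6 rpbp and Bhlhb2, a bHLH repressor, at 19 and 20.1 against 21.8 and 27.5 rpbp. Nfil3, which competes with the PAR bZIP factors for D-boxes, pointed the other way at 14.2 and 13.8 against 9.7 and 7.6 rpbp (limma, adjusted p = 0.197). Cry1 and Bhlhb3 were below 6 rpbp in all 4 libraries and were not tested. Among the 7 calls, 0 were left without ZT0 replicate 1, 2 without ZT0 replicate 2 (Per1 and Tef), 3 without ZT12 replicate 1 (Per1, Gm129 and Tef) and 2 without ZT12 replicate 2 (Per1 and Gm129). The call of Dbp was lost without the GC trend (limma, adjusted p = 0.0581).

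Among genes known as output of the clock, 5 of 12 tested were higher at ZT12 and none was called higher at ZT0 (limma), where 1, Avpr1a, had an unadjusted p under 0.05. Beside Upp2 these were Por, Ccrn4l, Usp2 and Nrg4. Por, the reductase that feeds electrons to the P450 enzymes, was at 3.5 and 4.9 rpbp at ZT0 and 59.2 and 49.1 rpbp at ZT12, a log2 difference of 3.41 ± 0.46 (SE; limma, adjusted p = 0.00943). Ccrn4l (now Noct, chromosome 3, 51028369 to 51055495), the Nocturnin gene, was at 5.3 and 3.4 rpbp at ZT0 and 38.9 and 35.3 rpbp at ZT12, a log2 difference of 2.85 ± 0.23 (SE; limma, adjusted p = 0.00234). Usp2, a deubiquitinase, was at 0.9 and 0.7 rpbp at ZT0 and 5.9 and 8.1 rpbp at ZT12, a log2 difference of 2.14 ± 0.22 (SE; limma, adjusted p = 0.00489). Nrg4, an EGF family ligand, was at 3.4 and 3 rpbp at ZT0 and 14.1 and 16.9 rpbp at ZT12, a log2 difference of 1.97 ± 0.32 (SE; limma, adjusted p = 0.0198). With 1 symbol kept per locus, 11 genes of this list were tested and Nrg4 was no longer among the calls. Whether its unstranded signal is separate from that of an overlapping symbol was not tested. Alas1, the first enzyme of heme synthesis, stood at 95.7 and 41 against 264.3 and 198.4 rpbp and did not pass (limma, adjusted p = 0.137), and its 2 values at ZT0 differed by more than 2-fold. Avpr1a, the liver vasopressin receptor, pointed to ZT0 with 2.8 and 8.3 against 1.1 and 1.3 rpbp (limma, adjusted p = 0.0921). Klf10, Ppard, Tspan4, Inmt and Pbef1 (now Nampt) were not called. Without ZT0 replicate 1 the call of Ccrn4l alone was left, without ZT0 replicate 2 or ZT12 replicate 1 those of Ccrn4l and Usp2, and without ZT12 replicate 2 all but that of Nrg4.

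**Figure D4:**
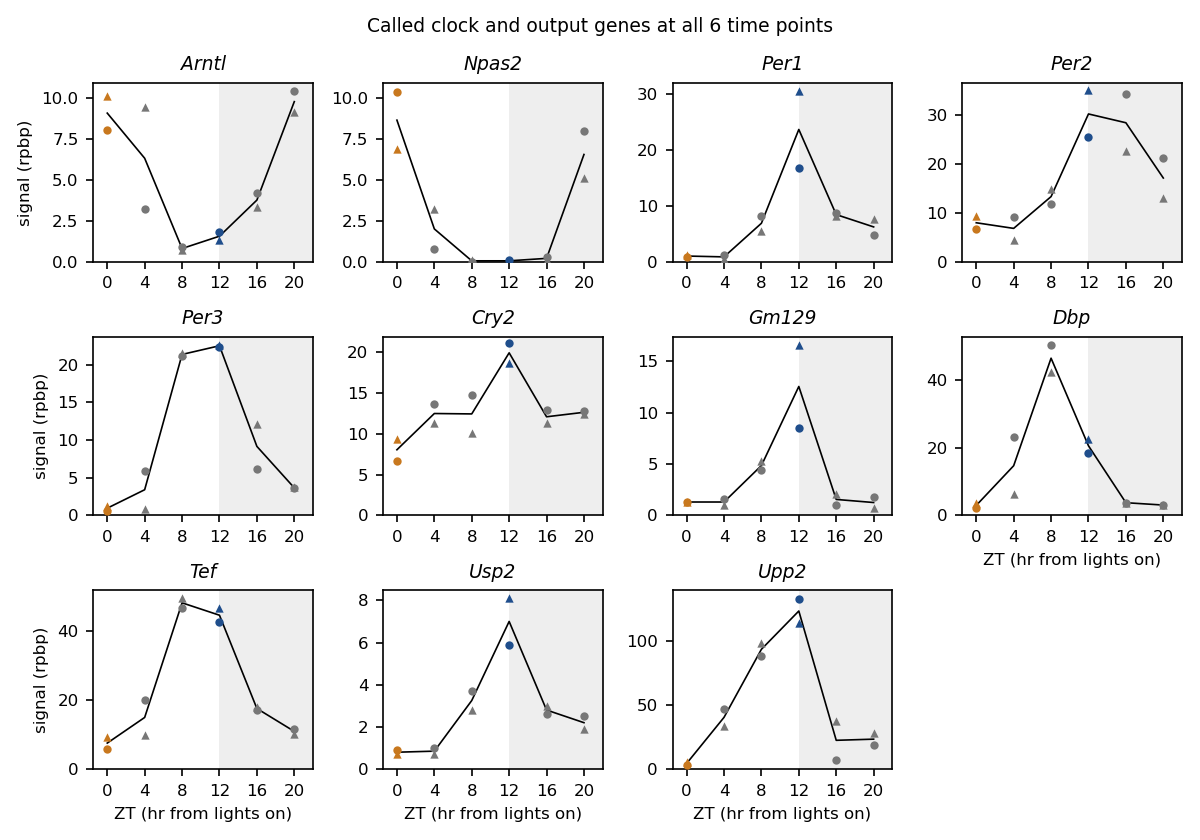
Signal (rpbp, linear axes from 0) of 11 called clock and output genes in all 12 libraries against zeitgeber time, with orange for ZT0, blue for ZT12, grey for the other time points, circles for replicate 1, triangles for replicate 2, lines through the means of 2 libraries and shading for the dark phase. Arntl and Npas2 are high at ZT0 and ZT20 and low at ZT8 and ZT12, Dbp is highest at ZT8, and Per1, Cry2, Gm129, Usp2 and Upp2 at ZT12.

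Promoter sequences are shown for 3 called clock genes that hold a clock motif and for Fabp1, which stands for the other direction. They are RefSeq windows of the GRCm38.p6 build on the strand of the gene, from 250 bases before to 50 bases after a start site. Capitals mark CACGTG (E-box), TTATGTAA or TTACGTAA (D-box) and AGGTCA (a nuclear receptor half-site), on either strand, so that a half-site on the other strand reads TGACCT.
Gm129: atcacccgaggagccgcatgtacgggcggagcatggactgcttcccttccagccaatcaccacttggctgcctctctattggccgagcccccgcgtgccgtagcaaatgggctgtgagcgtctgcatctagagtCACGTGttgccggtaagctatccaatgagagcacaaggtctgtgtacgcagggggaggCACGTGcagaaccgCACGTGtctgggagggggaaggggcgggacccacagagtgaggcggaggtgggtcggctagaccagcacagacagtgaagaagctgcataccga
Per1: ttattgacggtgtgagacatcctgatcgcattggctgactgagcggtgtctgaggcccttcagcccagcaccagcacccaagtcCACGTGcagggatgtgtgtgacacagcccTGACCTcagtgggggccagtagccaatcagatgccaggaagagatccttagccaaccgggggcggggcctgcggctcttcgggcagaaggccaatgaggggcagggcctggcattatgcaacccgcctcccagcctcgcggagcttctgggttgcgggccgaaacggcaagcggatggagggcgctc
Per3: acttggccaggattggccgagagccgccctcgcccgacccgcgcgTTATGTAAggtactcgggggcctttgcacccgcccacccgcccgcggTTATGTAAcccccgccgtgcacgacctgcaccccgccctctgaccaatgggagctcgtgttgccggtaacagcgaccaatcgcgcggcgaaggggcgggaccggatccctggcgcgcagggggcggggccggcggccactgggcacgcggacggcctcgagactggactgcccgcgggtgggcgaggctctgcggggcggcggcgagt
Fabp1: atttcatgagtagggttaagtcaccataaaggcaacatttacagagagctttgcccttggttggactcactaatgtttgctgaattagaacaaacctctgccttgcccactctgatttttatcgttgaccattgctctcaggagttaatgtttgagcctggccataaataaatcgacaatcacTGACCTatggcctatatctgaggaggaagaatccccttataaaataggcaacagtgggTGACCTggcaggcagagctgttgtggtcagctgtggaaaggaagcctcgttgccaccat
Gm129, at chr3:95882179-95882478, holds 3 E-boxes. Per1, at chr11:69098699-69098998, holds 1 E-box and 1 half-site, and a second annotated Per1 start holds none of the motifs. The window of Per3, at chr4:151044616-151044915, holds 2 D-boxes and no E-box, and that of Fabp1, at chr6:71199629-71199928, holds 2 half-sites. Windows were found for 100 distinct RefSeq genes among the 156 symbols higher at ZT12, 53 among the 88 higher at ZT0 and 3524 among all those tested. Symbols that name the same RefSeq gene count once. An E-box was present in at least 1 window of 15 (15.0%) of the first, 2 (3.77%) of the second and 413 (11.7%) of all tested genes with a window, and in 7.15% of all 32851 windows. The D-box was found for 3 (3.00%), 2 (3.77%) and 41 (1.16%) genes, and in 1.06% of all windows. The half-site was found for 21 (21.0%), 10 (18.9%) and 575 (16.3%) genes, and in 16.3% of all windows. The windows of Arntl, Npas2, Dbp, Cry2, Por and Pck1 hold no E-box, which speaks only of these letters in these 300 bases.

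In gluconeogenesis, 2 of 12 tested genes were higher at ZT12 (limma, 6 at an unadjusted p under 0.05) and none at ZT0 (0), with a median log2 difference of 0.86. Over all tested genes the shares at an unadjusted p under 0.05 were 11.9% towards ZT12 and 7.67% towards ZT0. The shares called were 2.86% and 1.61%, and all these shares serve as background for each gene list described here. Beside Pck1, the call was of Gpt2, the mitochondrial alanine transaminase, at 11.6 and 23 rpbp at ZT0 and 53.4 and 69.1 rpbp at ZT12, a log2 difference of 1.83 ± 0.34 (SE; limma, adjusted p = 0.0285). Sds, serine dehydratase, stood at 25.4 and 19.6 against 125 and 48.6 rpbp (limma, adjusted p = 0.0681) and Tat, tyrosine transaminase, at 109.2 and 232.9 against 456.6 and 357.2 rpbp (0.107). G6pc, which releases free glucose, did not separate the time points, at 112.4 and 119 against 215.2 and 52.3 rpbp, and Fbp1 was at 82.7 and 69.1 against 60 and 28.2 rpbp. Without ZT0 replicate 1 neither call was left, and Gpt2 also lost its call without either ZT12 library, whereas Sds gained one without ZT12 replicate 2.

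For glucose use and glycogen the calls were at ZT0, with 4 of 13 tested genes higher at ZT0 (limma, 6 at an unadjusted p under 0.05), none at ZT12 (0) and a median log2 difference of −0.80. Gckr, a regulator of the entry step of glucose use, was at 92.4 and 120.6 rpbp at ZT0 and 31.4 and 37.4 rpbp at ZT12, a log2 difference of −1.60 ± 0.21 (SE; limma, adjusted p = 0.00943). Ugp2, which makes UDP-glucose for glycogen, was at 14.4 and 16.4 rpbp at ZT0 and 5.6 and 5.8 rpbp at ZT12, a log2 difference of −1.29 ± 0.23 (SE; limma, adjusted p = 0.0249). Pygl, which breaks glycogen down, was at 44.5 and 43.4 rpbp at ZT0 and 18.4 and 24 rpbp at ZT12, a log2 difference of −1.03 ± 0.22 (SE; limma, adjusted p = 0.0409). With Pklr, these genes act on both the building and the use of glucose stores. Khk and Ppp1r3b were not called. Leaving out ZT12 replicate 2 left the call of Gckr, and leaving out any other of the 4 libraries left none.

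In fatty acid synthesis the calls were at lights on. Of 21 tested genes, 3 were higher at ZT0 (Scd1, Mod1 and Acaca), none was called higher at ZT12 (limma), and the median log2 difference was −0.78. At an unadjusted p under 0.05 the counts were 10 and 1. Acaca, acetyl-CoA carboxylase, was at 11.7 and 7.1 rpbp at ZT0 and 2.6 and 2.9 rpbp at ZT12, a log2 difference of −1.44 ± 0.25 (SE; limma, adjusted p = 0.0233). Fasn, the fatty acid synthase, was at 113.9 and 156.2 rpbp at ZT0 and 11.2 and 26.4 rpbp at ZT12, and its difference did not pass the test (a log2 difference of −2.88 ± 0.78, SE; limma, adjusted p = 0.0815). Srebf1, the SREBP1 factor that drives these genes, stood at 72.4 and 111.3 against 38 and 46.5 rpbp (limma, adjusted p = 0.392), while Mlxipl, the carbohydrate response factor, overlapped between the time points at 128 and 166 against 135.9 and 198.7 rpbp. Elovl3, a fatty acid elongase, was at 74.6 and 119 against 85.6 and 3.8 rpbp, so that 1 ZT12 library lay among the ZT0 values and the other far below them. When the spread was taken from all 12 libraries none of the 3 calls was left, and from the 4 libraries alone 7 genes were called higher at ZT0 and 1 at ZT12. Acaca alone stayed called without ZT0 replicate 2, none without either ZT0 replicate 1 or ZT12 replicate 2, and without ZT12 replicate 1 Elovl3 replaced all 3.

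In the sterol branch, 1 of 14 tested genes was called (limma, 2 at an unadjusted p under 0.05, both higher at ZT0, against 19.6% of all tested genes). Insig2, which holds the sterol sensor in the endoplasmic reticulum, was at 40.7 and 60.4 rpbp at ZT0 and 12.1 and 8.1 rpbp at ZT12, a log2 difference of −2.21 ± 0.47 (SE; limma, adjusted p = 0.0398). It lost its call in each of the 4 fits with 1 library left out and without the GC trend (limma, adjusted p = 0.0556). Insig1 and Sc5d were not called. For bile acids, 2 of 17 tested genes were higher at ZT12 (limma, 4 at an unadjusted p under 0.05) and none at ZT0 (3), and both are entry enzymes: Cyp7a1 of the classic route and Cyp27a1 of the alternative route. The shares over all tested genes were 2.86% called towards ZT12 and 1.61% towards ZT0, and 11.9% and 7.67% at an unadjusted p under 0.05 (limma). Cyp27a1 was at 25.6 and 52.4 rpbp at ZT0 and 129.9 and 126.6 rpbp at ZT12, a log2 difference of 1.78 ± 0.32 (SE; limma, adjusted p = 0.0249). Nr1h4, the bile acid receptor FXR, was at 52.3 and 62.8 against 46.8 and 68.2 rpbp, and the transporters Abcc2 and Slco1b2 were not called. Without ZT0 replicate 1 or ZT12 replicate 1 neither bile acid call was left, and without ZT12 replicate 2 that of Cyp7a1 was.

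Fatty acid oxidation had calls in both directions, 3 at ZT0 and 2 at ZT12 of 21 tested, with a median log2 difference of 0.10. At an unadjusted p under 0.05 (limma) the counts were 4 and 3, against 7.67% and 11.9% of all tested genes. The members called higher at ZT0 act in other steps than beta-oxidation itself: Fabp1 carries fatty acids, Adfp (now Plin2) coats lipid droplets and Pdk4 switches off the pyruvate dehydrogenase complex. Adfp was at 51.4 and 33.7 rpbp at ZT0 and 12.3 and 8.8 rpbp at ZT12, a log2 difference of −1.90 ± 0.26 (SE; limma, adjusted p = 0.00943). Pdk4 was at 3.5 and 6.4 rpbp at ZT0 and 0.1 and 0.4 rpbp at ZT12, a log2 difference of −2.22 ± 0.27 (SE; limma, adjusted p = 0.00724). It kept its call whichever library was left out, but lost it with a trend in the prior of the fit. Its ZT12 values lie near the floor. At ZT12, Cpt1a, the gate of fatty acids into mitochondria, was at 13 and 17.7 rpbp at ZT0 and 38.6 and 33 rpbp at ZT12, a log2 difference of 1.18 ± 0.22 (SE; limma, adjusted p = 0.0285). Angptl4, an inhibitor of lipoprotein lipase, was at 7.1 and 5.3 rpbp at ZT0 and 29.8 and 31 rpbp at ZT12, a log2 difference of 2.14 ± 0.43 (SE; limma, adjusted p = 0.0337), and lost its call with equal medians (limma, adjusted p = 0.0622) and without the GC trend (0.0679). Ppara, the receptor that governs these genes, was at 31.9 and 44.6 against 46.3 and 80.8 rpbp and was not called. The calls left were 1, of Pdk4, without ZT0 replicate 1, those of Fabp1 and Pdk4 without ZT12 replicate 2, and all 3 at ZT0 without either of the other libraries, while those of Cpt1a and Angptl4 were lost in all 4 fits.

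Genes of the hormone axes that passed were higher at lights off. Of all tested genes 2.86% were called towards ZT12 and 1.61% towards ZT0, and 11.9% and 7.67% had an unadjusted p under 0.05 (limma). Of the glucocorticoid list, 2 of 10 were higher at ZT12 (Fkbp5 and Zbtb16) and none at ZT0 (limma, 5 and 0 at an unadjusted p under 0.05). Both calls were lost with equal medians (limma, adjusted p = 0.0526 and 0.0536) and without the GC trend. Errfi1, an inhibitor of the EGF receptor, had tight replicates at 250.3 and 225.4 against 407.3 and 391.3 rpbp but did not pass (limma, adjusted p = 0.0735), nor did Tsc22d3 (GILZ) at 7.2 and 17.2 against 26.4 and 36.3 rpbp. In the growth hormone and IGF list 3 of 8 were higher at ZT12 and none at ZT0 (limma, 3 and 1 at an unadjusted p under 0.05). These were Igfbp4, an IGF-binding protein, at 27.2 and 36 rpbp at ZT0 and 87.7 and 84.4 rpbp at ZT12 (a log2 difference of 1.43 ± 0.21, SE; limma, adjusted p = 0.0130), the repressor Bcl6 at 8.4 and 10.5 rpbp at ZT0 and 21.9 and 39.5 rpbp at ZT12 (a log2 difference of 1.55 ± 0.31, SE; limma, adjusted p = 0.0327), and Socs3, a brake on cytokine signalling, at 1.1 and 1.7 rpbp at ZT0 and 8.9 and 4 rpbp at ZT12 (a log2 difference of 1.56 ± 0.33, SE; limma, adjusted p = 0.0394). Igf1 and Ghr, the growth factor and the receptor themselves, were at 82.8 and 28.2 against 45.6 and 23 rpbp and 48.4 and 55.2 against 40.1 and 27.4 rpbp and were not called. Among 14 insulin and fasting genes, only Foxo1, the factor that insulin keeps out of the nucleus, was called, at 5.7 and 6.5 rpbp at ZT0 and 18.4 and 16.9 rpbp at ZT12 (a log2 difference of 1.39 ± 0.21, SE; limma, adjusted p = 0.0130). At an unadjusted p under 0.05 (limma), 4 of the 14 were higher at ZT12 and 0 at ZT0. Igfbp1 reached 59.8 rpbp in 1 ZT12 library and 4.7 rpbp in the other. Without ZT0 replicate 1 none of these 6 calls was left. Foxo1 and Zbtb16 lost theirs in all 4 fits, Fkbp5 kept it without ZT12 replicate 1, Bcl6 without ZT12 replicate 1, Igfbp4 without ZT0 replicate 2 and Socs3 without ZT12 replicate 2, and Socs3 also lost it with equal medians (limma, adjusted p = 0.0539) and without the GC trend.

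Among the other liver functions the calls were few. Over all tested genes 2.86% were called towards ZT12 and 1.61% towards ZT0, and 11.9% and 7.67% had an unadjusted p under 0.05 (limma). In the urea cycle 1 of 12 tested genes, Asl, was called (limma, 5 at an unadjusted p under 0.05 towards ZT12 and 1 towards ZT0). The 11 others were not, among them Cps1, which makes carbamoyl phosphate, at 131.6 and 177.8 against 372 and 292.1 rpbp (limma, adjusted p = 0.0960), and Arg1, arginase, at 18 and 50.9 against 101.4 and 88.3 rpbp (0.150). Ass1, which acts just before Asl, was at 53.1 and 58.9 against 221.3 and 67.4 rpbp, with 1 ZT12 library near the ZT0 level. Of 23 xenobiotic genes 3 were higher at ZT12 and none at ZT0 (limma, 9 and 2 at an unadjusted p under 0.05). Nr1i2, the drug receptor PXR, was at 13.8 and 21.2 rpbp at ZT0 and 48.9 and 49.3 rpbp at ZT12, a log2 difference of 1.47 ± 0.26 (SE; limma, adjusted p = 0.0249). Sult1a1, a sulfotransferase, was at 4.4 and 8.8 rpbp at ZT0 and 40.6 and 36.6 rpbp at ZT12, a log2 difference of 2.44 ± 0.31 (SE; limma, adjusted p = 0.00785), and Cyp3a13 was at 3.7 and 10.2 rpbp at ZT0 and 21.7 and 38.4 rpbp at ZT12, a log2 difference of 2.04 ± 0.41 (SE; limma, adjusted p = 0.0336). Nr1i3, the receptor CAR, was at 50.1 and 173.1 against 202.1 and 234.8 rpbp and was not called. Leaving out ZT0 replicate 1 left neither the call of Asl nor any of these 3. Without ZT12 replicate 1 or ZT12 replicate 2 the xenobiotic call left was that of Sult1a1, and without ZT0 replicate 2 Nr1i2 alone lost its call.

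Of 20 tested acute-phase and complement genes, 1 was called higher at ZT0 and 2 at ZT12 (limma, 3 and 6 at an unadjusted p under 0.05). Over all tested genes 1.61% and 2.86% were called, and 7.67% and 11.9% had an unadjusted p under 0.05 (limma). C3, the central complement protein, was at 322.3 and 190.3 rpbp at ZT0 and 51.3 and 98.3 rpbp at ZT12, a log2 difference of −1.79 ± 0.40 (SE; limma, adjusted p = 0.0461). This call was lost in each fit with 1 library left out, with equal medians (limma, adjusted p = 0.0604) and without the GC trend. At ZT12 Saa4, an apolipoprotein of the serum amyloid family, was at 12.2 and 19.7 rpbp at ZT0 and 63.3 and 110.3 rpbp at ZT12, a log2 difference of 2.36 ± 0.32 (SE; limma, adjusted p = 0.00943), and Il6ra was described above. Of the 4 fits with 1 library left out, Saa4 and Il6ra lost their calls in that without ZT0 replicate 1. Among liver-enriched transcription factors 1 of 19 was called in each direction (limma, 2 at an unadjusted p under 0.05 towards ZT0 and 6 towards ZT12). The same shares over all tested genes apply to this list. Foxa2 was at 8.7 and 8.4 rpbp at ZT0 and 4.3 and 4.3 rpbp at ZT12, a log2 difference of −0.85 ± 0.19 (SE; limma, adjusted p = 0.0450), with values at each time point that differed by at most 0.3 rpbp. Klf13 was at 4.3 and 2.6 rpbp at ZT0 and 20.6 and 18.3 rpbp at ZT12, a log2 difference of 2.22 ± 0.30 (SE; limma, adjusted p = 0.00943). Hnf4a, a master regulator of hepatocytes, was at 34.9 and 52 against 59.2 and 83.3 rpbp and was not called. Without ZT12 replicate 2 the call of Klf13 was left, and without any other of the 4 libraries neither was.

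Lists of general cell functions held no call in either direction. No member passed among the tested immediate early (3), heat shock (12), unfolded protein response (20), NAD and sirtuin (10), cell cycle (2), ribosome biogenesis (2), long non-coding RNA (1), ribosomal protein (10), oxidative phosphorylation (19), proteasome (18) and histone (13) genes by limma. Of these 110 genes, 10 had an unadjusted p under 0.05 towards ZT0 and 4 towards ZT12 (limma), against 7.67% and 11.9% of all tested genes. Of the 20 unfolded protein response genes, 5 stood apart by over 1.5-fold with higher values at ZT0 and 1 at ZT12. Over all tested genes these shares were 3.94% and 6.09%. Hspa5, the chaperone BiP, was at 46.2 and 52.1 against 15.5 and 22.4 rpbp (limma, adjusted p = 0.312), and Herpud1 pointed the other way at 39.7 and 48 against 98.7 and 120.9 rpbp (0.208). With the spread from the 4 libraries alone, 7 genes of this list were called, 6 of them higher at ZT0. Rps3 was the most abundant of the ribosomal protein genes, at 737.6 and 521.7 against 281.5 and 446.9 rpbp. Sdha, of the respiratory chain, was at 11.5 and 16.8 against 11.2 and 13.6 rpbp, and Gas5, the one long non-coding RNA tested, at 20.1 and 21.3 against 19.4 and 22.1 rpbp.

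**Figure D5:**
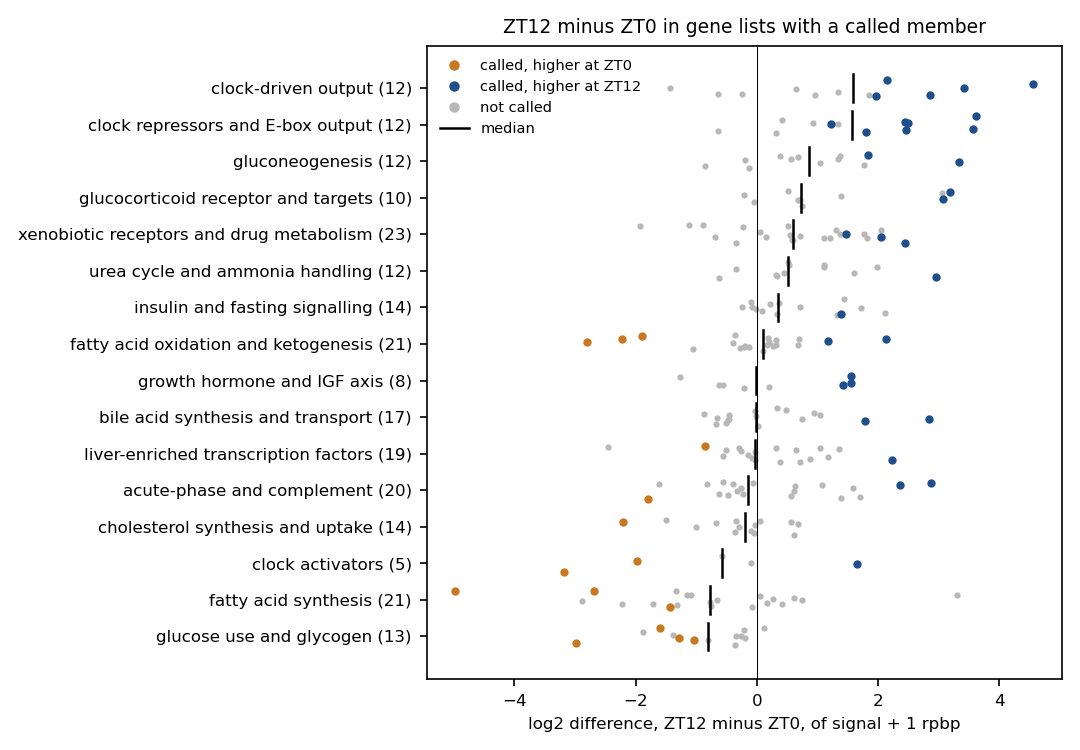
Log2 difference (ZT12 minus ZT0, signal + 1 rpbp) of each tested member of the 16 gene lists that hold a called gene, ordered by the median, with the number tested in parentheses; orange and blue points are called higher at ZT0 and at ZT12, grey points are not called, black lines are medians and points are spread vertically for legibility. Medians run from −0.80 for glucose use and glycogen to 1.59 for clock-driven output, against 0.05 over all tested genes.

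The called genes were then followed at the time points that the contrast does not use, of which ZT4 and ZT16 entered the fit through the spread alone. Of the 156 higher at ZT12, 69 (44.2%) had both ZT16 libraries above both ZT4 libraries, against 580 (10.6%) of all tested genes. The reverse held for 23 (14.7%) of the 156, against 2280 (41.8%) of all tested genes. Of the 88 higher at ZT0, 52 (59.1%) had both ZT4 libraries above both ZT16 libraries, against the same 41.8%. For 8 (9.09%) of the 88 the reverse held, against 10.6%. A small spread at ZT4 and ZT16 also favours a call, so these counts are not independent of the calls. The median log2 difference of ZT16 minus ZT4 was −0.19 over all tested genes. From the lowest to the highest GC bin, the median log2 deviation from the gene means changed by 0.24 and 0.15 in the ZT12 libraries. It changed by 0.35 and −0.15 at ZT16, −0.07 and −0.29 at ZT4 and −0.03 and −0.24 at ZT0. The part of this trend in the counts was not tested. Among ZT4, ZT8, ZT16 and ZT20, the mean was highest at ZT16 for 71 (45.5%) of the genes higher at ZT12, against 18.7% of all tested genes. For genes higher at ZT0 it was most often highest at ZT20, in 36 (40.9%) against 20.4%. ZT8 and ZT20 were sequenced in 2 lanes each, so their levels are at another depth. Single genes differed in shape: Asl was at 177.6 and 113.8 rpbp at ZT12 but at 39.4 and 38.6 rpbp at ZT16. Pck1, at 229.6 and 376.6 rpbp at ZT4 and 232.6 and 566.3 rpbp at ZT20, was lowest at ZT0 and was above it in both libraries of every other time point. Scd1 reached 183.3 rpbp in 1 library at ZT8 and 13 rpbp in the other.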

How the data were processed

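Nascent RNA was measured in the 12 liver libraries of the series, of which the 4 of ZT0 and ZT12 are compared here. According to the study's methods and the labels, purified nuclei were opened in a buffer of urea, salt and detergent, RNA was recovered from the pelleted chromatin, polyadenylated RNA was removed, and randomly primed libraries were sequenced on a Genome Analyzer II. The submitters' processing notes name CASAVA 1.7, TopHat and the mm9 build. The deposited signal was computed by the authors as reads per base pair along the exons merged under a gene symbol, without regard to strand, scaled to 40000000 uniquely mapped reads and rounded to 1 decimal. The study lists the mapped reads of each library and set the limit of 6 rpbp from its coverage, but the deposited signal keeps no read counts per gene, so no counting interval is given. Its columns of the authors' rhythm statistics (an F24 score, a phase and a p-value) were not used. Scaling to a fixed read number lets a few highly transcribed genes lower all others, and without strand the signals of overlapping genes are mixed.

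Symbols above 6 rpbp in at least 1 of the 4 libraries were tested on log2(rpbp + 1) with limma 3.58.1 (R 4.3.3), fitted to the means of ZT0, ZT4, ZT12 and ZT16 over their 8 one-lane libraries with 4 residual degrees of freedom, and p-values were adjusted by Benjamini-Hochberg over all 5451 symbols. Calls were made at an adjusted p under 0.05. Fold changes are on the scale of rpbp + 1 and understate those of low genes. Coordinates are those of mm9, and 4874 of the tested symbols (89.4%) were matched to GENCODE M1 for annotation and exon GC content: 3764 by name, 697 through a RefSeq synonym and 413 by position. Lists were described by counts and medians and were not tested as sets. Genes are named by rule: the members of the clock lists, the 15 called genes with the largest difference in each direction, called members of the lists and up to 4 further members of each list with the highest signal. Symbols that look like dates (6 tested) are left out of the text, and some further members of the lists are not reported here, although the counts and medians of a list include them. The genes, lists and time points were chosen with earlier results of these data known. The fit was tested on simulated data, and the alternatives tried are given with their effect in the closing section. Tables were made with Python 3.11.15 and pandas 2.3.3, and figures with matplotlib 3.10.9.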

Additional observations from a re-analysis of the deposited data

How the results depend on the processing

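The 244 calls were within 1.5 times that number with a threshold of 3 or 12 rpbp, a mean over 6 rpbp, 0.1 or 3 rpbp added or equal medians. The same held with the GC trend removed, all 12 libraries in the fit, 1 symbol per locus or a trend in the prior. All 244 genes (or those of them still tested) kept their direction in each of the 17 alternatives. Each already had both libraries of one time point over 1.5-fold apart from both of the other, so this is no further support. With no threshold, 56 of 19515 symbols were called, 29 higher at ZT0 and 27 higher at ZT12. A threshold of 12 rpbp left 48 genes and a mean over 6 rpbp left 53 genes higher at ZT0. With the 4 libraries alone 482 genes were called, 192 higher at ZT0 and 290 higher at ZT12. Leaving out 1 library gave 7 to 79 calls, 4 to 30 higher at ZT0 and 3 to 54 higher at ZT12.

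With the replicate number as a block, 141 genes were called, 47 higher at ZT0 and 94 higher at ZT12, of which 135 were among the 244. Among the calls lost with the block were those of Arntl, Per2, Cry2 and Dbp. Replicate differences of ZT0 and ZT12, the pair compared here, correlated at 0.19 across genes. Those of the other pairs of time points correlated at −0.13 to 0.10, and ZT8 and ZT20 were not in this check. The study describes 2 independent series of 6 time points, but the labels do not say whether a number marks a shared series. The main fit leaves the replicate number out. Among the 173 named genes tested, 112 were not called, and 35 of those, with reported log2 differences of at most 0.56 in size, changed sign in at least 1 alternative. Of the 61 called, none changed sign, but each already had both libraries of one time point apart from both of the other. Without the GC trend 12 named genes lost their call and with equal medians 11. The causes were not tested.

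With 2 libraries a group, 1 library can decide a call, and the deposited signal does not give the reads behind a gene's value.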

Other observations

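Outside the lists, called genes of known function were picked after their values were seen. At lights off, Fmo5, a flavin monooxygenase, was at 27.4 and 71.2 rpbp at ZT0 and 212.6 and 277.9 rpbp at ZT12 (limma, adjusted p = 0.0209). The ganglioside synthase gene St3gal5 was at 3.5 and 7.3 rpbp at ZT0 and 27.2 and 45.8 rpbp at ZT12 (limma, adjusted p = 0.0164). Pim3, a kinase, was at 5.1 and 6.2 rpbp at ZT0 and 29.1 and 37.3 rpbp at ZT12 (limma, adjusted p = 0.00724). Map2k6, which activates p38 kinases, was at 2.2 and 1.6 rpbp at ZT0 and 11.4 and 10.3 rpbp at ZT12 (limma, adjusted p = 0.00489), and kept its call whichever of the 4 libraries was left out. The kinase gene Mknk2 was at 6.1 and 9.2 rpbp at ZT0 and 33.1 and 27.2 rpbp at ZT12 (limma, adjusted p = 0.00728), and the symbol Mnk2 names the same locus. Both Pfkfb2 (7.6 and 9.6 against 18 and 19 rpbp) and Pfkfb3 (2.2 and 1.2 against 6.9 and 15.9 rpbp), which set the level of the main activator of glycolysis, were higher at ZT12, in the direction opposite to Pklr. The pair was called with adjusted p of 0.0400 and 0.0456 (limma), and Pfkfb3 lost its call with equal medians (limma, adjusted p = 0.0720).

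At lights on, Hsd17b2, which inactivates estradiol and testosterone, was at 49.6 and 33.8 rpbp at ZT0 and 12.1 and 11.9 rpbp at ZT12 (limma, adjusted p = 0.0101). Hsd3b5 was at 21.2 and 17.1 rpbp at ZT0 and 5.1 and 6 rpbp at ZT12 (limma, adjusted p = 0.00728). Adh4 was at 43.2 and 46.2 rpbp at ZT0 and 16.8 and 12.5 rpbp at ZT12 (limma, adjusted p = 0.00943). The manganese exporter gene Slc30a10 was at 15.9 and 16 rpbp at ZT0 and 2 and 3.1 rpbp at ZT12 (limma, adjusted p = 0.0173). In each of these 4 genes, as in every symbol called higher at ZT0, both libraries of ZT0 lay above both of ZT12.

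Cd163 (2.4 and 2.4 against 7.1 and 9.6 rpbp) and Grn (4.1 and 4.7 against 10.3 and 19.6 rpbp), known from macrophages, were higher at ZT12, with adjusted p of 0.0272 and 0.0327 (limma). Both were picked after their values were seen and are not on the list of Kupffer cell markers. Of that list 3 of 12 genes were tested and none was called. Kupffer cell markers summed to 41.5 and 45.3 rpbp at ZT0 and 66.4 and 61.1 rpbp at ZT12, and Clec4f, the highest of them, was at 9.6 and 13.9 against 21.6 and 22.7 rpbp and was not called (limma, adjusted p = 0.0770). Their part in these differences was not tested.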
